A study of Mus musculus with 6 samples.

Results

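The genes described here encode fibronectin (Fn1), elastin (Eln), the fibrillins (Fbn1, Fbn2), the fibulins (Fbln1, Fbln2, Fbln5, Fbln7 and Efemp2, which encodes fibulin-4) and EMILIN1 (Emilin1). They were chosen by name, as the entries of the deposited count table whose symbol was one of 10 listed genes. These genes and the partner lists below were chosen with earlier results of these data known. The table of 22030 genes was searched for each, and 9 were analysed; Fbn2 was not analysed here. Of these 9, 8 passed the filter on low counts and were tested among 13067 genes; Eln did not pass.

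The study compared mouse bone marrow mesenchymal stem cells with and without reduced RIOK3, an atypical protein kinase, by RNA sequencing, and its stated interest was osteogenic differentiation. The control group (3 libraries) carried siNC in its titles and WT as genotype. The knockdown group (3 libraries) carried siRIOK3 in its titles and a RIOK3 knockdown label. The design text speaks of stable lines made with lentivirus and also of a knockout, so the labels do not settle the agent. The sources used here give no strain, age, passage, culture medium or day of differentiation. No label says that the 3 libraries of a group are from separate cultures. The p-values thus measure the spread between these libraries alone, which may be technical.

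Fibronectin is a secreted dimer that cells assemble through integrins into fibrils, and this early matrix serves as a scaffold on which other matrix proteins are laid down. Fibrillins form the microfibrils of connective tissue, which also hold latent TGF-beta and BMP growth factors and, in elastic tissues, carry elastin. Fibulins and EMILIN1 bind elastin, microfibrils or fibronectin, fibulin-4 and fibulin-5 are needed for elastic fibre assembly, and lysyl oxidases crosslink elastin and collagen. In bone, fibrillin microfibrils and fibronectin are known parts of the matrix made by osteoblast-lineage cells.

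The libraries held between 28327612 and 32569544 counts. Control replicate 2 stood apart from the other controls, with Spearman correlations of 0.963 and 0.968 to control replicates 1 and 3 against 0.996 between those. Log2 fold changes of the tested matrix genes are given with and without it. Riok3 itself had 4266, 5365 and 4022 counts in control replicates 1 to 3 and 1034, 1048 and 1155 in the knockdown, a log2 fold change of −2.23 (SE 0.178, edgeR adjusted p = 0.000127). With the GC trend described below removed, the Riok3 value was −1.20 (SE 0.238, edgeR adjusted p = 0.0105). It was −0.89 when control replicate 2 was also left out. Of 15 mesenchymal stromal markers all were in the table and 14 were tested, although Lepr lay below the filter and Thy1 averaged 0.899 CPM in control against 0.763 CPM in the knockdown. The stromal list itself was split, with 6 called higher and 6 called lower. Among the higher were Col1a1 (log2 fold change 1.39), Col1a2 (1.21) and Pdgfrb (1.13). Among the lower were Alcam (−2.57), Vcam1 (−1.44), Prrx1 (−1.04) and Cd44 (−0.80). With the GC trend removed these were, in the same order, 0.76, 0.74, 0.71, −1.55, −0.45, 0.48 and 0.09. In that fit 5 of the list were called higher and 3 lower. Among markers of other cells, the smooth muscle list (7 of 7 tested, 2 called higher) summed to between 714 and 857 CPM in control, and between 1100 and 1158 CPM in the knockdown. Most of that sum was Acta2, with means of 523 and 847 CPM. Acta2 (log2 fold change 0.70) and Lmod1 (1.06) were called higher. Tagln (−0.31), Myh11 (0.07), Cnn1 (0.07), Smtn (0.18) and Des (1.55) were not called. With the GC trend removed Smtn was called lower (−0.48, edgeR adjusted p = 0.0444). Endothelial markers (6 of 8 in the table) summed to between 7.23 and 10.8 CPM in control, and between 14.8 and 16.3 CPM in the knockdown. The largest parts of that sum were Kdr (means of 4.87 and 7.27 CPM, not called) and Vwf (3.16 and 7.02 CPM). Vwf was called higher (log2 fold change 1.15), but not with the GC trend removed (0.63, edgeR adjusted p = 0.0596). Tek was not called. Below the filter, Cdh5 had a lower mean in the knockdown, and Pecam1 and Erg had higher means. Leukocyte markers (10 of 13 in the table) summed to between 26.9 and 43.4 CPM in control, and between 46.7 and 51.7 CPM in the knockdown. Nearly all of that sum was Cd68, with means of 35.3 and 48.3 CPM (edgeR adjusted p = 0.124, not called). Cd14, with means of 1.09 and 0.675 CPM, was not called, but was called lower with the GC trend removed (−0.94, edgeR adjusted p = 0.0379). The other leukocyte markers lay below the filter. Means of Itgam, Lyz2, Aif1, Ptprc, Mrc1 and Laptm5 were lower in the knockdown, while those of Csf1r (0.150 against 0.333 CPM) and Tyrobp were higher. Ptprc, the defining leukocyte gene, had at most 3 counts in any library. Summed adipocyte markers (2 of 5 in the table) were lower in the knockdown, between 1.21 and 1.90 CPM against 4.92 to 9.99 CPM. That sum was Fabp4 but for 1 count of Plin1. Fabp4 went from −2.11 to −0.25 (edgeR adjusted p = 0.69, not called) with the GC trend removed. Summed chondrocyte markers (4 of 5 in the table) were lower too, between 15.8 and 17.997 CPM against 21.8 to 30.5 CPM. Most of that sum was Sox9. Sox9 and Acan were called lower with and without the GC trend. Col2a1 and Comp, below the filter, had higher means in the knockdown. The part of these markers in the results below was not tested.

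Most transcripts of the matrix genes were more abundant in the RIOK3 knockdown. Of the 8 genes tested, 7 rose (Fn1, Fbn1, Fbln1, Fbln5, Fbln7, Efemp2 and Emilin1) and 0 fell, where 21.1% of all tested genes were called higher and 26.8% lower (edgeR's quasi-likelihood test, adjusted by Benjamini-Hochberg, threshold 0.05). All 8 had every knockdown library above every control library in CPM (counts scaled to a common library size by TMM), as did 30.8% of all tested genes. Without control replicate 2, 8 were called higher, where 35.1% of all tested genes were. Their median log2 fold change over all libraries was 0.97, against 0.01 over all tested genes. The gain was at least 2-fold for Fbn1, Fbln1, Fbln7 and Emilin1, a size that 6.67% of all tested genes reached among the higher calls. In these bulk libraries a change in the number of cells of a type and a change in RNA per cell cannot be told apart.

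**Figure D1:**
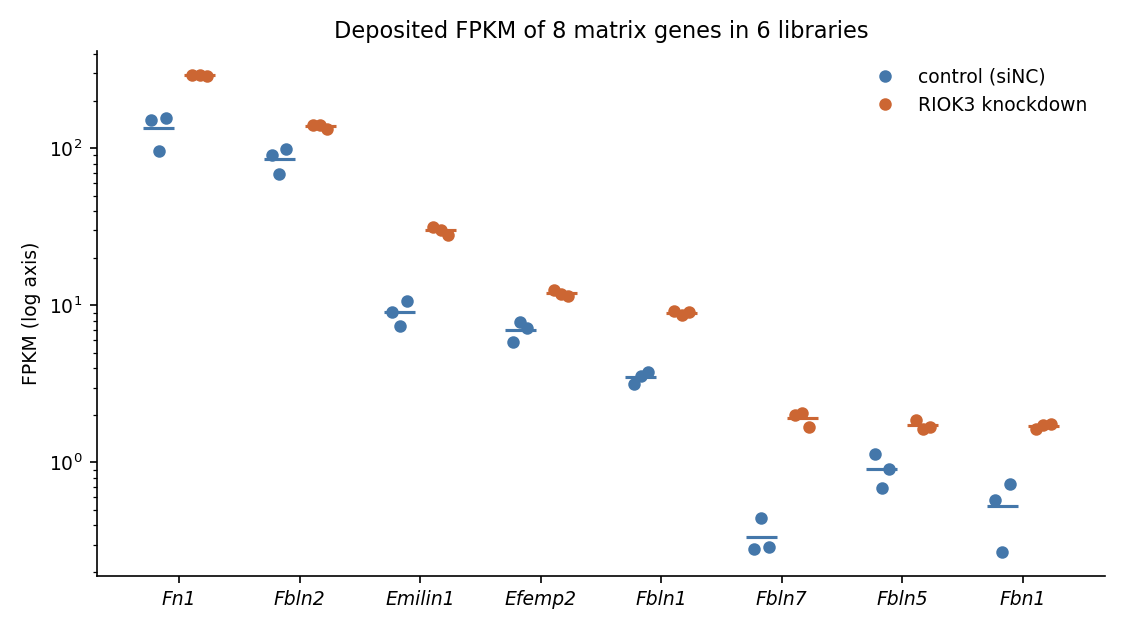
Deposited FPKM (log axis) of the 8 tested matrix genes in the 6 libraries, with points for libraries and lines for group means, control in blue and RIOK3 knockdown in orange. Each knockdown library lay above each control library for every gene; Fn1 went from a mean of 134 to 292 FPKM and Fbln7 from 0.337 to 1.91 FPKM.

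These gains stood on a genome-wide trend with base composition. Over 13043 genes the log2 fold change correlated with the GC content of the transcript (Spearman 0.70, Pearson 0.68, a description across genes, which are not independent), and GC-rich transcripts were mostly higher in the knockdown. The matrix transcripts ranged from 48.4% GC (Fbln5) to 61.1% GC (Emilin1). When that trend was removed from each library, 5 of the 8 genes were called higher (Fbn1, Fbln1, Fbln5, Fbln7 and Emilin1) and 0 were called lower, against 16.4% and 15.2% of all tested genes, and their median log2 fold change was 0.72 against 0.03 over all tested genes. With a further trend on transcript length removed, 6 were called higher (Fn1 was added) and 1 lower (Fbln2), against 21.5% and 18% of all tested genes. With library totals alone as scaling, which moved the median of all genes to 0.26, 8 were called higher, against 32.8% of all tested genes. The source of the GC trend was not tested, so values with and without it are given for each tested matrix gene.

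**Figure D2:**
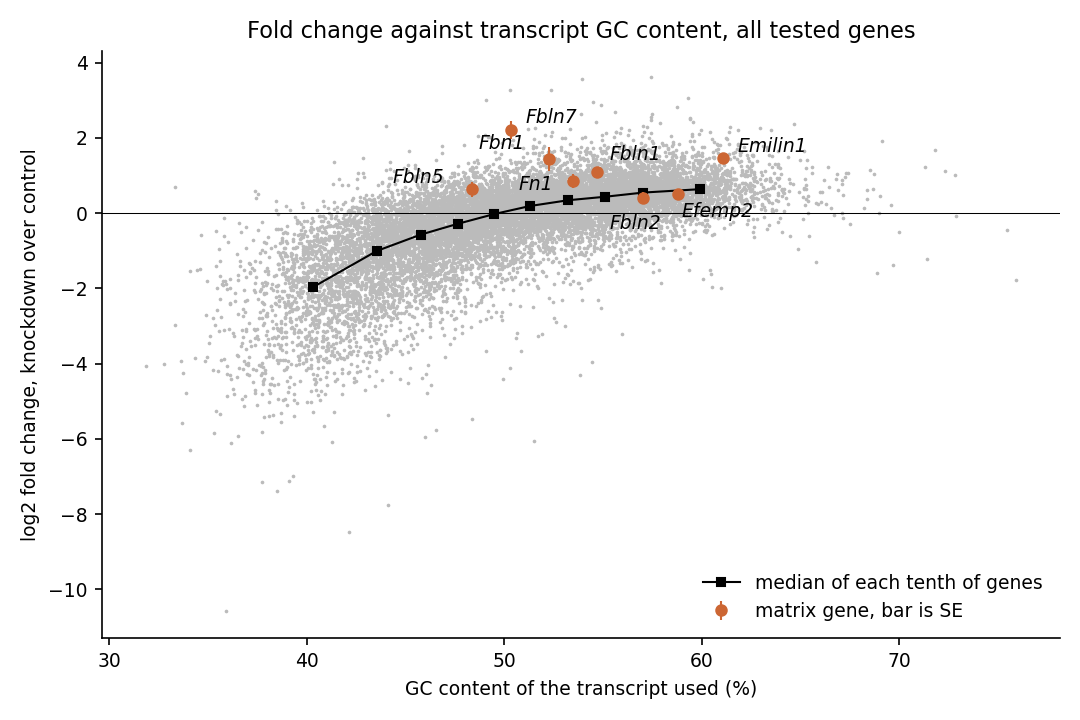
Log2 fold change, knockdown over control, against GC content of the transcript (%) for all tested genes (grey), with medians of equal-sized bins of genes by GC (black line) and the matrix genes in orange with SE bars. Fbln7, Fbn1, Fbln5, Emilin1, Fbln1 and Fn1 lay above the line, at log2 fold changes of 2.22, 1.44, 0.64, 1.45, 1.09 and 0.85. Fbln2 (0.40) and Efemp2 (0.50) lay below it.

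Promoters of the genes with the largest gains are shown beside that of Fbln2, whose higher level in the knockdown did not pass the test, so that the upstream sequences can be read side by side. Promoter sequence came from RefSeq on GRCm38.p6, where 7 of the genes had 11 entries; each is the 250 bases before the annotated start, 5′ to 3′ on the gene's strand. In all, 5 motifs were searched on both strands. Capitals mark matches to the GC box or the E-box, on either strand.
Fbln7 (chr2:128863682-128863931, + strand): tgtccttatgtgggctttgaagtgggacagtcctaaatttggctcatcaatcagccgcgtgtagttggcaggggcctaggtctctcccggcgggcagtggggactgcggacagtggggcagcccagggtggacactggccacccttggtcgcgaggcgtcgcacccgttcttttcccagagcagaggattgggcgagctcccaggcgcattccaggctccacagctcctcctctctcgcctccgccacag
Emilin1 (chr5:30913536-30913785, + strand): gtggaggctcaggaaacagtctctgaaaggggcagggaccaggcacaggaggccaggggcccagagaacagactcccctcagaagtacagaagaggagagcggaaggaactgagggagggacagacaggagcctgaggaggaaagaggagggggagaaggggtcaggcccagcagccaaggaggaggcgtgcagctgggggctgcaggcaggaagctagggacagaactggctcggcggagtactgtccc
Fbn1 (chr2:125506439-125506688, − strand): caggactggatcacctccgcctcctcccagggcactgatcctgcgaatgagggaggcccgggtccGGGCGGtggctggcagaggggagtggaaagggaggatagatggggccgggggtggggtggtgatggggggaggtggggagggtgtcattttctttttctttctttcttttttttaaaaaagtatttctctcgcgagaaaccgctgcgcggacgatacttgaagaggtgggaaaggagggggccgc
Fbln1 second entry (chr15:85205758-85206007, + strand): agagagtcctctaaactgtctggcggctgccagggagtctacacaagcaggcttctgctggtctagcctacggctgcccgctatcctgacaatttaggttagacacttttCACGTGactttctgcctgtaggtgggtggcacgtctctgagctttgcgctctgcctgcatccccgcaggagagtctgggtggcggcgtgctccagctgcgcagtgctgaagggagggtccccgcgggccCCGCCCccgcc
Fbln2 (chr6:91212514-91212763, + strand): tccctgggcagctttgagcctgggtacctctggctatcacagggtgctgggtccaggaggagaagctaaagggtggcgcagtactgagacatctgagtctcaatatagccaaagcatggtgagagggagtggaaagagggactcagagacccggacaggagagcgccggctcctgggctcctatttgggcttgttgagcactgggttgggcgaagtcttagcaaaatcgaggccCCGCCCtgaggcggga
The promoters of Fbln7 and Emilin1 held none of the motifs searched. The GC box, spelled GGGCGG, occurred 185 bases upstream of the Fbn1 start, 16 bases upstream of the Fbln2 start and 11 bases upstream of the second Fbln1 start, and 32.7% of 32851 mouse promoters of the same length held it. The E-box, spelled CACGTG, occurred 140 bases upstream of the second Fbln1 start and is held by 6.02% of promoters. The TATA box TATAAA (12.4% of promoters), the cyclic AMP response element TGACGTCA (1.55%) and the AP-1 site TGACTCA (4.46%) were in none of the 11 entries. In the 5 sequences shown no match overlaps another, and no motif was common to all of them; in Efemp2, not shown, some GC boxes overlap each other. A match describes letters, not binding.

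Fn1 was the most abundant of the genes. Its counts were 60374, 35830 and 59774 in control replicates 1 to 3 and 103843, 107161 and 97810 in the knockdown, which made it one of the 134 most abundant genes in every library. In TMM-scaled CPM it read 2027, 1288 and 2014 in control and 3228, 3219.6 and 3149 in the knockdown. The groups did not overlap, and the knockdown libraries lay close together while control replicate 2 was the lowest. The mean rose from 1776 ± 423 to 3199 ± 43.0 CPM (SD, n = 3), a log2 fold change of 0.85 (SE 0.194, edgeR adjusted p = 0.0104), and without control replicate 2 it was 0.66. Its transcript has 53.5% GC, and genes of similar GC (52.3 to 54.2%) had a median log2 fold change of 0.34 with 30.2% called higher. With the GC trend removed the value was 0.53 (adjusted p = 0.0758), which is not a call. When control replicate 2 was also left out, a fit chosen after seeing the data, it was 0.35 (edgeR adjusted p = 2.98e-06), a higher call. With the GC and length trends removed it was 0.49 (adjusted p = 0.00881).

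Fbn1 encodes fibrillin-1, the main microfibril protein. Control replicates 1 to 3 had 238, 107 and 289 counts, or 7.99, 3.85 and 9.74 CPM, and knockdown replicates had 604, 655 and 621 counts, or 18.8, 19.7 and 19.996 CPM. Every knockdown library lay above every control, and the controls were more spread, with control replicate 2 lowest. The mean rose from 7.19 ± 3.03 to 19.5 ± 0.634 CPM (SD, n = 3), a log2 fold change of 1.44 (SE 0.311, edgeR adjusted p = 0.00829). With the GC trend removed it was 1.22 (adjusted p = 0.0194), and without control replicate 2 it was 1.14.

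Elastin transcripts were near the limit of detection. Eln had 2, 2 and 5 counts in control and 6, 0 and 1 in the knockdown, or 9 and 7 summed over each group. Those counts lay below the filter, so no fold change is given; the 0 in knockdown replicate 2 allows up to 3 counts, or 0.0901 CPM, counting error only. Efemp1, which encodes fibulin-3, was also below the filter, with means of 0.471 CPM in control against 0.114 CPM in the knockdown. Very little transcript of the elastin core was thus found beside that of fibronectin, fibrillin-1, the fibulins and EMILIN1.

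Of the long fibulins, fibulin-1 passed the test and fibulin-2 did not; the difference between them was not tested. Fbln1, a fibronectin- and basement-membrane-binding glycoprotein gene, had 471, 496 and 542 counts in control and 1217, 1175 and 1153 in the knockdown. These were 15.8, 17.8 and 18.3 CPM against 37.8, 35.3 and 37.1 CPM, with narrow groups far apart. Its mean rose from 17.3 ± 1.31 to 36.8 ± 1.30 CPM (SD, n = 3), a log2 fold change of 1.09 (SE 0.126, edgeR adjusted p = 0.000561); with the GC trend removed it was 0.68 (adjusted p = 0.00519).
Fbln2 had 19542, 14065 and 20763 counts in control and 27241, 27722 and 24371 in the knockdown, or 656, 506 and 699 CPM against 847, 833 and 785 CPM. The groups did not overlap, but the means, 620.4 ± 102 CPM for control against 821 ± 32.5 CPM for the knockdown (SD, n = 3), a log2 fold change of 0.40 (SE 0.153), did not pass (edgeR adjusted p = 0.0634). The call turned on 1 library and on the correction. Without control replicate 2 the log2 fold change was 0.28 (adjusted p = 0.000877, a higher call), and with the GC and length trends removed it was −0.27 (adjusted p = 0.0435, a lower call). Its transcript has 57.0% GC, and genes of similar GC had a median log2 fold change of 0.55 with 45.4% called higher.

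The short fibulins that were tested, of which fibulin-4 and fibulin-5 bind elastin and lysyl oxidases, all passed the test, by unequal margins. Fibulin-3 (Efemp1), below the filter as given above, was not tested. Fbln7, whose product is a cell-adhesive fibulin, had 31, 46 and 31 counts in control and 197, 207 and 156 in the knockdown, or 1.04, 1.65 and 1.04 CPM against 6.12, 6.22 and 5.02 CPM. This was a low-level gene with a wide gap between groups. On average it rose from 1.25 ± 0.353 to 5.79 ± 0.665 CPM (SD, n = 3), which is 4.64-fold, with a log2 fold change of 2.22 (SE 0.242, edgeR adjusted p = 0.000465). Its transcript has 50.3% GC, and genes of similar GC had a median of −0.02 with 12.4% called higher, and the value with the GC trend removed was 2.17 (adjusted p = 0.00179).
Fbln5 had 269, 154 and 206 counts in control and 390, 352 and 334 in the knockdown, or 9.03, 5.54 and 6.94 CPM against 12.1, 10.6 and 10.8 CPM, with control replicate 1 close below the knockdown libraries. Its mean rose from 7.17 ± 1.76 to 11.2 ± 0.846 CPM (SD, n = 3), a log2 fold change of 0.64 (SE 0.200, edgeR adjusted p = 0.0347), or 0.87 (adjusted p = 0.00853) with the GC trend removed. Its transcript has 48.4% GC, and genes of similar GC had a median of −0.28 with 7.28% called higher. Leaving out control replicate 3 or any knockdown replicate ended the call, with adjusted p up to 0.115.
Efemp2, encoding fibulin-4, had 758, 953 and 889 counts in control and 1431, 1394 and 1262 in the knockdown, or 25.4, 34.3 and 29.95 CPM against 44.5, 41.9 and 40.6 CPM. The groups lay close together but did not overlap. The mean rose from 29.9 ± 4.41 to 42.3 ± 1.96 CPM (SD, n = 3), a log2 fold change of 0.50 (SE 0.147, edgeR adjusted p = 0.0265). The gene was not called after removal of the GC trend, at −0.11 (adjusted p = 0.521). Its transcript has 58.8% GC, and genes of similar GC had a median of 0.64 with 50.7% called higher. Leaving out any library other than control replicate 2 ended the call, with adjusted p up to 0.105. Efemp2 overlaps Mus81 on the other strand in GENCODE M21, and Mus81 averaged 17.01 CPM in control against 24.8 CPM in the knockdown (adjusted p = 0.0845); the sources used here do not give the strand setting of the counting, so their reads cannot be told apart. In the same annotation Fn1 overlaps Apol7d, Fbn1 overlaps Gm9913 and Eln overlaps Gm30003, each on the other strand, and the same limit holds for them.

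Emilin1 encodes a glycoprotein at the boundary of elastin and microfibrils that also binds integrins and the precursor of TGF-beta. It had 1530, 1177 and 1733 counts in control and 4757, 4667 and 3989 in the knockdown, or 51.4, 42.3 and 58.4 CPM against 148, 140.2 and 128 CPM. Every knockdown library was far above every control library. On average Emilin1 rose from 50.7 ± 8.06 to 139 ± 9.78 CPM (SD, n = 3), which is 2.74-fold, with a log2 fold change of 1.45 (SE 0.155, edgeR adjusted p = 0.000421). It has the highest GC content of the genes, 61.1%, and genes of similar GC had a median of 0.64; after removal of the GC trend the value was 0.76 (adjusted p = 0.0121). Without control replicate 2 the log2 fold changes of the fibulins and Emilin1 not yet given were 1.11 for Fbln1, 0.48 for Fbln5, 2.47 for Fbln7, 0.61 for Efemp2 and 1.34 for Emilin1.

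**Figure D3:**
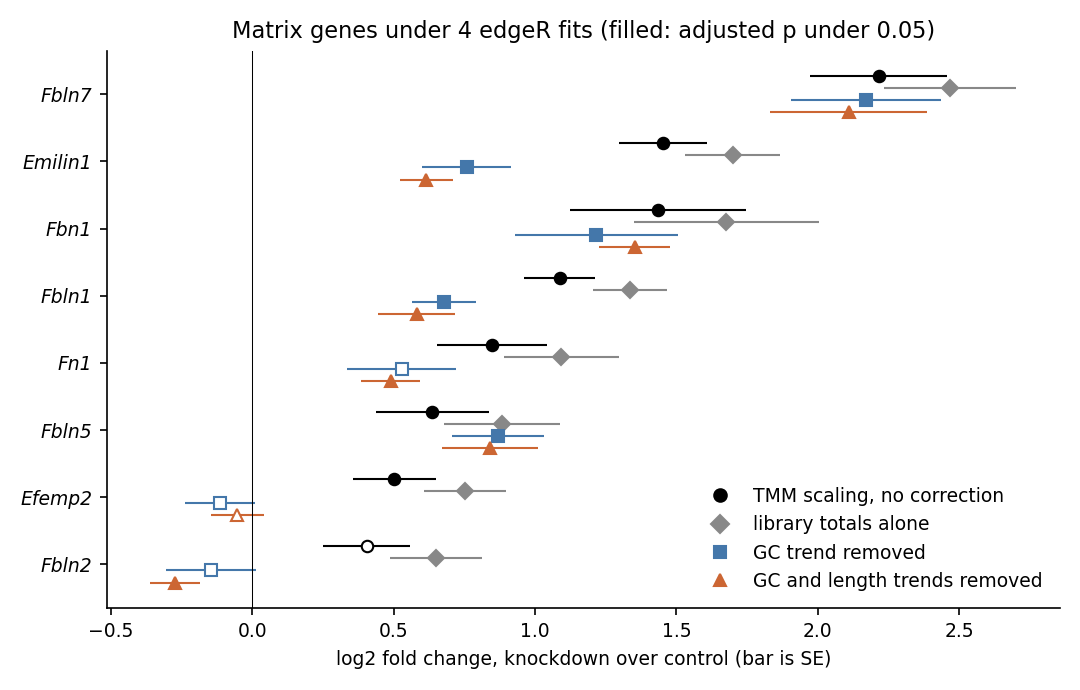
Log2 fold change, knockdown over control, of the 8 tested matrix genes under 4 edgeR fits (TMM scaling, library totals alone, GC trend removed, GC and length trends removed), with SE bars and filled symbols where the adjusted p was under 0.05. Fbln7 stayed between 2.11 and 2.47, whereas Fbln2 ran from 0.65 with library totals alone to −0.27 with the GC and length trends removed.

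Across genes, levels per length can be compared only in FPKM, which were not TMM-scaled. In control the order of means was Fn1 (134), Fbln2 (86.1), Emilin1 (9.08), Efemp2 (6.96), Fbln1 (3.50), Fbln5 (0.913), Fbn1 (0.527) and Fbln7 (0.337), and Eln was lowest. Fn1 and Fbln2 overlapped in their ranges over the control libraries, as did Emilin1 with Efemp2, Fbln5 with Fbn1 and Fbn1 with Fbln7. In the knockdown the order by mean was different at the low end: Fn1 (292), Fbln2 (138), Emilin1 (30.0), Efemp2 (11.9) and Fbln1 (8.98) were followed by Fbln7 (1.91), Fbln5 (1.72) and Fbn1 (1.71), whose ranges overlapped. The sum over the genes lay between 184.51 and 278.63 FPKM in control, and between 475.58 and 492.44 FPKM in the knockdown. The matrix genes held between 0.170 and 0.267% of all counts in control and between 0.458 and 0.470% in the knockdown, and these ranges did not overlap. Some proportions within a library also separated the groups. The ratio of Fn1 to Fbln2 was 1.68, 1.39 and 1.57 in control against 2.08, 2.11 and 2.19 in the knockdown; Emilin1 to Fbln2 ran from 0.101 to 0.108 in control and from 0.211 to 0.225 in the knockdown. Fbln2 made up between 34.4 and 37.3% of the summed FPKM in control and between 27.8 and 28.6% in the knockdown. The shares of Fn1, Fbn1, Fbln7 and Emilin1 were higher in every knockdown library than in any control library. Those of Eln, Fbln1, Fbln5 and Efemp2 overlapped between the groups.

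The genes that build elastic fibres and microfibrils with these proteins moved in both directions. Of 44 listed (crosslinking enzymes, latent TGF-beta binding proteins, microfibril-associated proteins, proteoglycans and ADAMTS family proteins), 30 were tested, 12 rose and 7 fell. Their median log2 fold change was 0.51, against 0.01 over all tested genes, and 48% of all tested genes were called in either direction. With the GC trend removed 4 of the 30 were called higher and 6 lower, close to the 16.4% and 15.2% of all tested genes in that fit. The 19 calls in either direction became 9, 11 and 13 without knockdown replicate 1, 2 or 3, where 32.7%, 32.4% and 34.9% of all tested genes were called, and 25 without control replicate 2, where 71.6% were. The number of calls in the list thus moved with that over all genes. Among those with the smallest p in each direction, Loxl1, a lysyl oxidase of elastic fibres, rose from 7.17 to 14.8 CPM (log2 fold change 1.05), Ltbp2, which binds fibrillin-1, from 3.46 to 9.20 CPM (1.41), Bgn, the proteoglycan biglycan, from 917 to 1555 CPM (0.76) and Ltbp3 from 139.9 to 245 CPM (0.81). Of these rises, Bgn and Ltbp2 were also called with the GC trend removed (0.51 and 0.80) and Loxl1 (0.35) and Ltbp3 (0.11) were not. Lox, the enzyme that crosslinks elastin and collagen, had 294, 173 and 293 CPM in control and 39.5, 38.1 and 38.9 CPM in the knockdown, a log2 fold change of −2.70 (SE 0.226, edgeR adjusted p = 0.000153); removal of the GC trend gave −1.63. Vcan, versican, had a log2 fold change of −3.20, Dcn, decorin, of −3.00 and Adamts6, which cleaves microfibril-linked matrix, of −1.61; with the GC trend removed they were −2.10, −1.68 and −0.43, and Adamts6 was not called. Among the lysyl oxidases Lox was thus called lower and Loxl1 higher. Ltbp4, a fibulin-5 ligand, had a log2 fold change of 0.98 (adjusted p = 0.0166), which was not called with the GC trend removed (0.25) or without knockdown replicate 1 (adjusted p = 0.0625). Of the microfibril-associated genes, Mfap2 had a log2 fold change of 1.55 at 0.150 and 0.444 CPM (adjusted p = 0.0555) and Mfap5 of −0.23 (adjusted p = 0.471); neither passed.

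The genes that bind or process fibronectin did so too. Of 41 listed (integrins, syndecans, adhesion proteins, matrix partners and proteases), 34 were tested, 17 rose and 6 fell, where 21.1% of all tested genes were called higher and 26.8% lower. Their median log2 fold change was 0.49. With the GC trend removed 9 were called higher and 5 lower, against 16.4% and 15.2% of all tested genes. The 23 calls in either direction became 15, 13 and 15 without knockdown replicate 1, 2 or 3, and 30 without control replicate 2, in the fits whose shares over all genes (32.7%, 32.4%, 34.9% and 71.6%) are given above. Itgb3, the beta-3 integrin subunit, had 4.87, 6.11 and 6.94 CPM in control and 25.9, 24.8 and 25.1 CPM in the knockdown, a log2 fold change of 2.08 (SE 0.165, edgeR adjusted p = 0.000121); removal of the GC trend gave 1.86. Its partner subunit in the alpha-v beta-3 receptor, Itgav, had 49.05, 31.9 and 39.4 CPM in control and 11.4, 10.3 and 11.0 CPM in the knockdown. That was a log2 fold change of −1.88 (SE 0.185, edgeR adjusted p = 0.000302), and removal of the GC trend gave −0.73 (edgeR adjusted p = 0.00557). The 2 subunits of the alpha-v beta-3 receptor therefore changed in opposite directions in both fits. Col5a1, a fibrillar collagen that binds fibronectin, rose from 22.6 to 79.8 CPM (1.82), Itgb5 from 48.2 to 109.6 CPM (1.19) and Zyx, zyxin of focal adhesions, had a log2 fold change of 1.001. With the GC trend removed these were 1.23, 0.61 and 0.47, each still called. Among the lower calls were Itga8 (−1.81, and −0.79 with the GC trend removed) and Srsf1 (−1.56, and −1.77), a splicing factor known to act on the alternative exons of Fn1. The alpha-5 subunit gene Itga5 had a log2 fold change of 0.77 (adjusted p = 0.0052) and the beta-1 subunit gene Itgb1 of −0.61 (adjusted p = 0.00721), but with the GC trend removed neither was called, at 0.20 and 0.23, so the sign of Itgb1 turned. Tgm2, the crosslinking transglutaminase, had a log2 fold change of 0.24 (adjusted p = 0.215), and of −0.32 with the GC trend removed (edgeR adjusted p = 0.157). It was called lower with the GC and length trends removed (−0.39) and higher with library totals alone (0.48), so its direction turned on the processing.

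**Figure D4:**
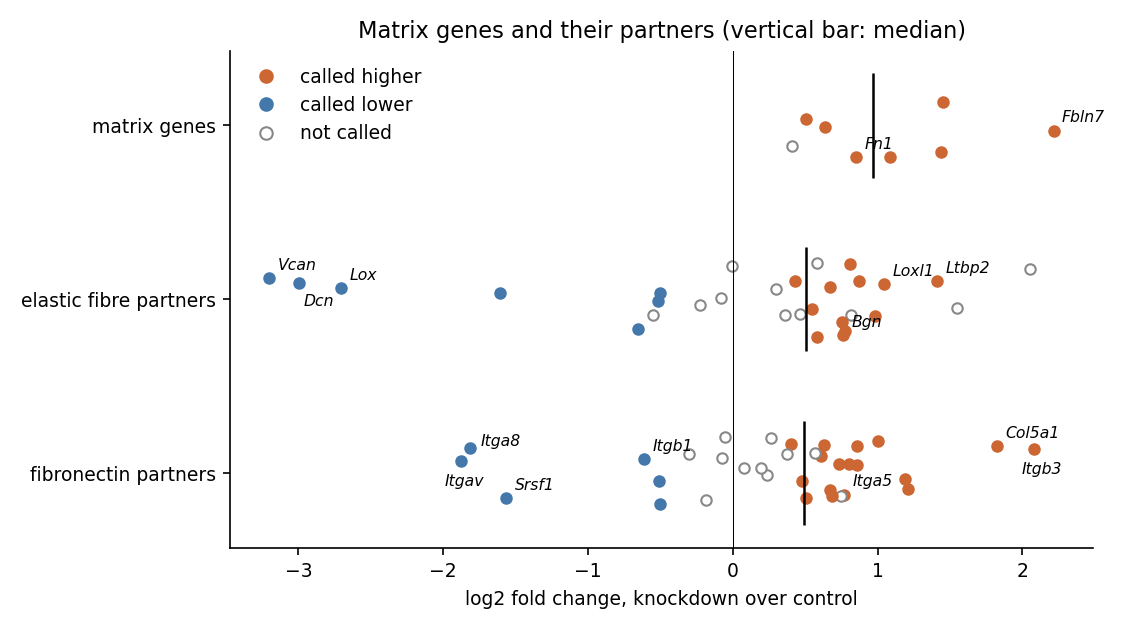
Log2 fold change, knockdown over control, of the 8 tested matrix genes and of the tested genes in both partner lists, with filled symbols for calls (orange higher, blue lower), open symbols for genes that did not pass and a vertical bar for the median. The medians were 0.97 for the matrix genes, 0.51 for the elastic fibre partners and 0.49 for the fibronectin partners.

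The 3 genes whose log2 CPM followed that of Fn1 most closely over the 6 libraries, among 3446 genes with a mean of at least 50 CPM, were Arfgap3, Kdm5c and Iqsec1 (Pearson r 0.9997, 0.9996 and 0.9993). Over the same libraries 383 genes had a Pearson r above 0.95 with Fn1, and all of them share the libraries and the group difference, so this is a description.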

How the data were processed

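For the 6 libraries, 3 control and 3 knockdown by their titles, the authors deposited raw gene counts and FPKM. Per the labels' protocols, total RNA went into a stranded mRNA kit and was sequenced as paired-end reads. The submitters' processing notes name HISAT2, MultiQC and GRCm39; the sources used here do not give the counting tool, its strand setting or any batch. The deposited counts were tested in edgeR 4.0.16 (R 4.3.3), with filterByExpr (13067 genes), TMM scaling, robust quasi-likelihood fits without covariates and Benjamini-Hochberg adjustment over all tested genes; calls are adjusted p under 0.05. SE is the log2 fold change divided by the square root of F. Alternatives used DESeq2 1.42.0, limma 3.58.1, other scalings and filters, left-out libraries, log2(FPKM + 1), and offsets removing a loess trend (span 0.3) of log2 CPM on transcript GC, taken from GENCODE M21 on GRCm38, an earlier build, for 99.8% of tested genes. Deposited FPKM served for levels and alternatives only. The code was tested on simulated data. Members and lists were chosen with earlier results of these data known. The text names Riok3, all members, the 4 called partners of smallest p in each direction per list, 11 partners whatever their values, and the 3 genes most like Fn1. Protein sequences were not used here.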

Additional observations from a re-analysis of the deposited data

How the results depend on the processing

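Under 21 alternatives the number of matrix genes called higher ranged from 5 to 8 and called lower from 0 to 1 (Fbln2, with the GC and length trends removed and with the GC trend removed without control replicate 2, the latter chosen after seeing the data). Of 168 member values, 140 kept direction and side of the threshold, 12 lost the call, 8 gained it and 8 turned sign. The member signs that turned were Fbln2 (−0.14 with the GC trend removed, −0.27 with GC and length, −0.13 with GC and a replicate block, −0.28 with GC without control replicate 2) and Efemp2 (−0.11, −0.053, −0.11 and −0.027). Among the named partners, signs turned for Itgb1 (0.23, 0.25, 0.23 and 0.23 in the same fits), Tgm2 (−0.32, −0.39, −0.30 and −0.44) and Ltbp3 (−0.16 with GC and length). They also turned for Ltbp4 (−0.021 with GC without control replicate 2) and Mfap5 (0.020 with library totals, 0.30, 0.32, 0.31 and 0.46 with the same offsets, 0.011 with unfiltered FPKM). Elastic fibre partners called (19) were 10 with the GC trend removed, 7 with the block added and 9 to 25 leaving out a library; fibronectin partners (23) were 14, 15 with GC and length, 11 with the block and 13 to 30. All genes called (6266) were 4123, 3102 with the block, 9477 with limma-voom and 4340 (without knockdown replicate 2) to 9592 (without control replicate 2). The cause was not tested. Scaling moved the median of all genes from 0.01 to 0.21 (upper quartile) and 0.26 (library totals), and lower calls from 56.0 to 43.8 and 39.7% of calls. Deviations from the group mean of same-numbered libraries had correlations of −0.076, 0.044 and 0.052. Control replicate 2 dominates the deviations of the controls, so these values cannot decide whether the numbers pair the libraries. A replicate block gave 5615 calls over all genes and cost Efemp2 its call (0.51, edgeR adjusted p = 0.0639). Some genes not called with the GC trend removed were called when control replicate 2 was also left out. Among the members and named partners they were Fn1 (0.35), Itga5 (0.32), Itgb1 (0.23), Loxl1 (0.37), Adamts6 (−0.62), Tgm2 (−0.44) and Fbln2 (−0.28). Of the genes most like Fn1, Arfgap3 (0.26), Kdm5c (0.225) and Iqsec1 (0.27) changed in the same way. Ltbp3, Ltbp4 and Efemp2 stayed without a call. In that fit 8228 of 13372 tested genes were called. Depth limits Eln and, less, Fbln7.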

Other observations

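Among the latent TGF-beta binding proteins, which resemble fibrillins and bind them, Ltbp1 was called lower where Ltbp2, Ltbp3 and Ltbp4 were called higher. Its mean was 124 CPM in control against 87.5 CPM in the knockdown, a log2 fold change of −0.50 (SE 0.115, edgeR adjusted p = 0.00975). Removal of the GC trend gave −0.81 (adjusted p = 0.00291). In that fit Ltbp2 was still called higher (0.80), whereas Ltbp3 (0.11) and Ltbp4 (0.25) were not called. Ltbp1 and the lysyl oxidases that follow were named after their values were seen. Loxl3 rose from 33.2 to 49.7 CPM (log2 fold change 0.58, edgeR adjusted p = 0.0134), which was not called with the GC trend removed (0.26), while Loxl2 (0.81, adjusted p = 0.135) and Loxl4 (0.58, adjusted p = 0.114) did not pass. Lox, at 253 CPM in control, was the most abundant of the lysyl oxidases there in CPM, and Loxl3, at 49.7 CPM, was above Lox, at 38.8 CPM, in the knockdown; CPM are not scaled for gene length.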
